A study of Homo sapiens with 2 samples.

Results

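The interferon signalling and interferon-stimulated genes of PLC-8024 cells, a human hepatocellular carcinoma (HCC) cell line, were examined with and without overexpression of the secreted TGF-β family ligand GDF1. The 46 genes were taken by symbol from a fixed list and all of them were found among the 58174 genes of the deposited tables. Abundance was given in TPM, a share of the transcripts of a library corrected for gene length, and 34 of them reached 1 TPM in at least 1 of the libraries while 12 stayed under it. PLC-8024-CTR cells carried a control vector and PLC-8024-GDF1 cells, labelled GDF1-overexpression, had been transduced with a lentivirus carrying full-length human GDF1. Stably transduced cells were selected with puromycin, and no interferon treatment was given by the labels for either condition. Each condition had 1 library of poly-A RNA, called the control library (PLC-8024-CTR) and the GDF1 library (PLC-8024-GDF1) here, so no difference has a replicate check, no test was made and every value describes these 2 libraries.

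Interferons are secreted proteins, and cells release type I interferons when viral RNA or DNA is sensed. Type I interferons bind the receptor chains IFNAR1 and IFNAR2, type II interferon binds IFNGR1 and IFNGR2, and the receptors signal through JAK family kinases to STAT and IRF proteins, which bind interferon-stimulated response elements (ISRE) or gamma-activated sites (GAS) in the promoters of stimulated genes. In the liver, these genes form a main barrier to hepatitis viruses, and many cancer cells keep a part of them at a basal level without added interferon.

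Only a few of the 34 interferon genes differed by more than 2-fold between the libraries. BST2, IFI27 and IFI6 were over 2-fold higher in PLC-8024-GDF1 and USP18 was over 2-fold lower, while 30 stayed within 2-fold. The change of a gene was the log2 of its TPM + 1 in the GDF1 library divided by its TPM + 1 in the control library, and over 2-fold means a value above 1 or below -1. Adding 1 shrinks the changes of genes with few TPM. Among all 14929 genes that reached 1 TPM, 4.82% were over 2-fold higher and 9.61% over 2-fold lower, against 3 and 1 of the 34 interferon genes. An increase of any size was listed for 17 of the 34 and for 36.7% of all genes. The median log2 change was -0.02 over the interferon genes and -0.20 over all genes. With TPM rescaled by 1.18 in PLC-8024-GDF1 so that the median of all genes was 0, 4 interferon genes were over 2-fold higher and 0 over 2-fold lower, against 7.38% and 6.52% of all genes.

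The labels and the cell identity were checked first. The values of GDF1 were 2.096 TPM in the control library and 4.64 TPM in the GDF1 library. CERS1, which shares a transcript with GDF1, stood at 13.3 and 9612 TPM. Which of these reads came from the introduced sequence was not tested. All 8 hepatocyte markers examined were listed above 1 TPM in PLC-8024-CTR, from 7.17 TPM for TTR to 5308 TPM for SERPINA1, and 5 of the 8 were over 2-fold lower in PLC-8024-GDF1. Of 6 leukocyte markers, PTPRC and TYROBP stood at 0.0001 TPM in both libraries, the value that stands in place of 0 in these tables. The summed leukocyte markers, at 34.3 and 15.2 TPM, came mostly from CD68, a lysosomal protein gene. The 4 endothelial and mesenchymal markers summed to 23.5 and 23.0 TPM, mostly from PECAM1, with VWF and COL1A2 at 0.0001 TPM in both. In bulk RNA, fewer cells expressing a gene and less RNA per cell cannot be told apart.

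Promoters of some stimulated genes with very different levels held a shared sequence feature, the ISRE core, and others held none. The printed stretches are examples that hold it, so their sharing it is not a result. Stimulated genes are the class whose promoters are known for ISRE sites, so genes and motif were not chosen independently. RefSeq windows of 300 bases on GRCh38.p14, from 250 bases before to 50 bases after the start site, were matched for 34 of the 46 genes, which are not the same 34 as those above 1 TPM. An ISRE core was searched as GAAANNGAAA and a GAS as TTCNNNGAA on both strands, and matches were allowed to overlap. Each stretch below is 60 bases long, reads 5′ to 3′ towards the gene and lies before the start site, with the ISRE core matches in capitals. BST2 lies at chr19:17405723-17405782 on the minus strand, IFI6 at chr1:27672251-27672310 on the minus strand and IFI27 at chr14:94110609-94110668 on the plus strand. ISG15 lies at chr1:1013362-1013421 on the plus strand, IFITM3 at chr11:320870-320929 on the minus strand, IFIT1 at chr10:89392488-89392547 on the plus strand and IFI44L at chr1:78620350-78620409 on the plus strand.
BST2: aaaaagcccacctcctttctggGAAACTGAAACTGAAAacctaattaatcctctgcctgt
IFI6: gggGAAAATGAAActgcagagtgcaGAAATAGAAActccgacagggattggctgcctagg
IFI27: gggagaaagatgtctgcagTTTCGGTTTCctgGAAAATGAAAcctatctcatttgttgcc
ISG15: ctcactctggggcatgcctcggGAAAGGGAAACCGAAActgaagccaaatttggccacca
IFITM3: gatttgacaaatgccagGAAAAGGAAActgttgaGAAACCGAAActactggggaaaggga
IFIT1: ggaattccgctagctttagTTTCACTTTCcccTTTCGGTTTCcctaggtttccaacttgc
IFI44L: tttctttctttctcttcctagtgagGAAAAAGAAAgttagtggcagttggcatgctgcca

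An ISRE core was found in 19 of the 34 interferon genes with a window (55.9%) and in 4.38% of all 27305 genes with one. A GAS was found in 9 of the 34 (26.5%) and in 9.38% of all genes, and 5 genes (IFITM1, MX1, BST2, PARP14 and IFI27) held both. The ISRE core was absent from the receptor, kinase and transcription factor genes that had a window. It stood in 1 of the 11 signalling genes with a window, the sensor gene IFIH1, and in 18 of the 23 effector genes with a window. Only exact matches within the windows were searched, so other forms of the element, or sites outside the windows, were not counted. The genes over 2-fold higher each held more than 1 match, and so did many others. Among genes within 2-fold, IFIH1 and IFIT5 held 3 ISRE cores each. IFITM1, IFITM3, OAS3, ISG15 and TRIM21 held 2 each. IFIT1, IFIT3 and IFI44L, all under 1 TPM, also held 2 in a window. BST2 held 2 ISRE cores, starting at -130 and -124 from the start site and overlapping each other, with a GAS at -136 that overlaps the first of them and another at -58. IFI6 held 3 cores, at -156, -115 and -93, and the printed stretch covers the last 2. IFI27 held cores at -108 and -95 in 1 of its 2 windows, with a GAS at -101 that overlaps both, and the other window held the same bases at other distances.

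Genes with an ISRE core differed widely in level and in change. The 19 genes with an ISRE core ranged from 0.0001 TPM for IFI44 and IFI44L to 1647 TPM for IFITM3 in PLC-8024-GDF1. The 13 of them with at least 1 TPM changed by -0.75 to 1.87 on the log2 scale, with a median of 0.41 and 3 of them over 2-fold higher. The 14 genes above 1 TPM whose windows held no core changed by -0.79 to 0.72, with a median of -0.09 and 0 past 2-fold. Over all 14929 genes that reached 1 TPM the median was -0.20, with 4.82% over 2-fold higher and 9.61% over 2-fold lower. The ranges of the genes with and without a core overlapped, and the difference between these groups was not tested. No window was matched for IFNAR2, IRF2, IRF3, IRF7, DHX58, IFIT2, IFITM2, OAS2, OASL, MX2, USP18 and TRIM22. The 7 of these with at least 1 TPM had a median of 0.34, with 0 over 2-fold higher and 1 over 2-fold lower.

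**Figure D1:**
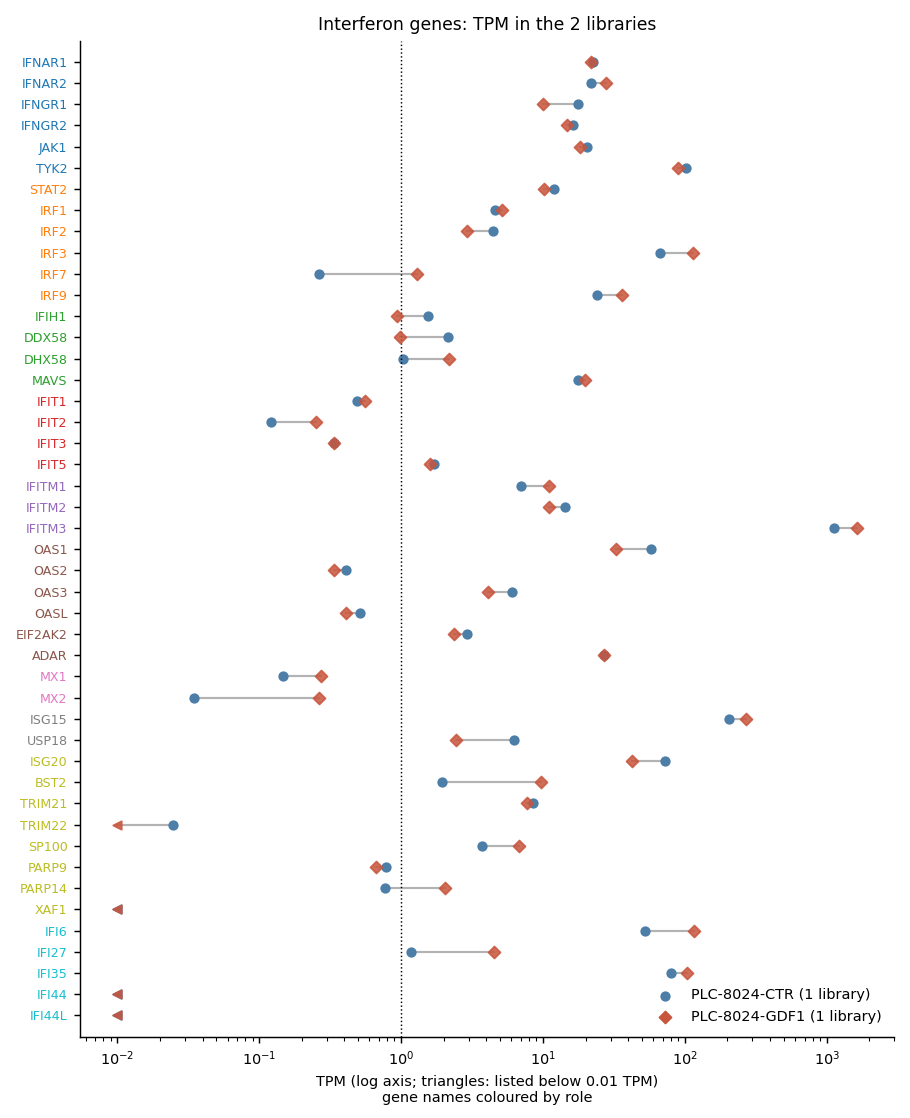
TPM of the 46 interferon genes in PLC-8024-CTR (circles) and PLC-8024-GDF1 (diamonds), 1 library each, on a log axis, with gene names coloured by role a dotted line at 1 TPM and triangles for values under 0.01 TPM. Levels run from 0.0001 TPM to 1647 TPM for IFITM3, and in most genes the points of both libraries lie close together.

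The levels spanned a wide range in both libraries. IFITM3, an inhibitor of viral entry in endosomes, was the most abundant, and its 1129 TPM in the control and 1647 TPM in the GDF1 library made up 56.02% and 61.34% of the TPM of all 46 genes. ISG15, a ubiquitin-like modifier, came next in both libraries, followed by the kinase gene TYK2 in the control library and by IFI6 and IRF3 in the GDF1 library. At least 20 TPM in both libraries was listed for 12 of the 46 genes. Summed over all 46 genes, TPM were 2016 in the control and 2685 in the GDF1 library, and without IFITM3 they were 886.5 and 1038.

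The ligands were examined from a list of other pathway genes. All 21 interferon genes on it, 13 of the alpha family together with IFNB1, IFNW1, IFNE, IFNK, IFNG, IFNL1, IFNL2 and IFNL3, stood at or under 0.0001 TPM in both libraries. Among all 58174 genes, 54.0% did so. No interferon transcript was therefore listed in either library, although TPM values do not show how deep the libraries were.

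The receptor chains and their kinases were expressed in both libraries and stayed within 2-fold. IFNAR1, a chain of the type I receptor, was listed at 22.74 TPM in the control and 22.01 TPM in the GDF1 library, a log2 change of -0.04. Its partner chain IFNAR2 was listed at 21.7 and 27.7 TPM (log2 change 0.34). IFNGR1, which binds type II interferon, was listed at 17.6 and 9.97 TPM (-0.77), the lowest of the 6 changes in this group. The second chain of that receptor, IFNGR2, was listed at 16.3 and 14.7 TPM (-0.14). JAK1, which serves both receptors, was listed at 20.6 and 18.2 TPM (-0.17). TYK2, which serves the type I receptor, was listed at 102.0 and 89.3 TPM (-0.19). Of the 6 genes, 5 had lower values in PLC-8024-GDF1 and 0 passed 2-fold. Among all 14929 genes that reached 1 TPM, 9443 had lower values. With TPM rescaled to a median of 0, IFNAR1, IFNGR2, JAK1 and TYK2 changed sign and IFNGR1 remained lower (-0.55). TMEM50B, at 21.5 and 25.6 TPM, covers 15.0% of the exon bases of IFNGR2 on the other strand, and with its TPM added the change of IFNGR2 turned to 0.09. AP000295.1, at 1.13 and 0.0001 TPM, covers 14.7% of the exon bases of IFNAR2 on the same strand, and with its TPM added the change of IFNAR2 was 0.27.

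The genes of the type I and type II receptors lie partly together. On chromosome 21 of GRCh37, IFNAR2 (34577587 to 34637980), IFNAR1 (34696692 to 34732170) and IFNGR2 (34775719 to 34851655) lie in this order on the plus strand, and their log2 changes ranged from -0.14 to 0.34. IL10RB, a receptor chain of the interferon lambda and interleukin pathways from the list of other pathway genes, was listed at 26.4 and 16.7 TPM (-0.63). IFNLR1, the other interferon lambda receptor chain, was listed at 2.07 and 1.02 TPM (-0.60).

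Among the transcription factors, 4 of the 5 IRF genes were higher, against 36.7% of all genes, and none passed 2-fold with the pseudocount of 1. IRF3, the factor that starts interferon gene transcription after RNA sensing, was listed at 66.6 TPM in the control and 114.9 TPM in the GDF1 library, a log2 change of 0.78. IRF9, the DNA-binding partner of the STAT proteins in the type I response, was listed at 24.0 and 36.4 TPM (0.58). IRF7, which amplifies interferon alpha transcription, had 0.26 and 1.29 TPM (0.86), so it passed 1 TPM only in PLC-8024-GDF1. IRF3 was past 2-fold with rescaled TPM (1.01), and IRF7 with a pseudocount of 0.1 (1.94) and as a plain ratio (2.30). IRF7 was thus the gene just above the minimum of 1 TPM, and PARP9, with 0.78 and 0.67 TPM, the gene just under it. IRF1, an early target of type II interferon, was listed at 4.59 and 5.13 TPM (0.13). IRF2, which binds the same elements as IRF1 and mostly represses, was listed at 4.48 and 2.93 TPM (-0.48). STAT2, the partner of IRF9, was listed at 11.9 and 10.1 TPM (-0.21).

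Overlapping genes limit some of these values. BCL2L12, at 86.7 and 97.7 TPM, covers 19.3% of the exon bases of IRF3 on the other strand, and with its TPM added the change of IRF3 was 0.47. AL136295.5, at 0.50 and 7.70 TPM, covers 23.9% of the exon bases of IRF9 on the same strand, and with its TPM added the change was 0.82. IRF1 shared 30.1% of the 100-base windows of its longest transcript with C5orf56, which was under 1 TPM in both libraries.

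The cytosolic RNA sensors were near 1 TPM and did not move together. IFIH1, which senses long double-stranded RNA, was listed at 1.55 and 0.94 TPM (-0.40). DDX58, which encodes the sensor RIG-I, was listed at 2.14 and 0.98 TPM (-0.66). DHX58, a related helicase without signalling domains, was listed at 1.04 and 2.18 TPM (0.64). Both signalling sensors were thus lower in PLC-8024-GDF1 and DHX58 was higher, with no value past 2-fold. Without a pseudocount, the TPM ratio gave log2 values of -1.13 for DDX58 and 1.07 for DHX58, both past 2-fold. With the GC trend removed, IFIH1 changed by -0.05, DDX58 by -0.25 and DHX58 by 0.67. In the annotation used here, 88.0% of the 100-base windows of DDX58 also occurred in another locus. Reads of DDX58 could be placed there if the authors' annotation held that locus, which is not known. MAVS, the mitochondrial adaptor on which these sensors act, was listed at 17.7 and 19.7 TPM (0.14).

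**Figure D2:**
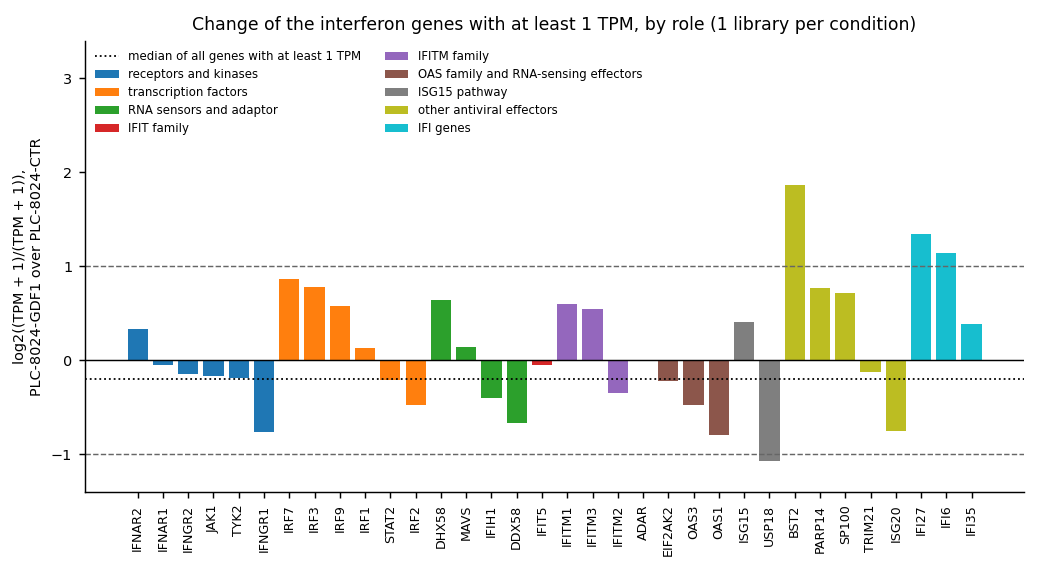
Log2 change from the control to the GDF1 library (pseudocount 1, 1 library per condition) for the 34 interferon genes with at least 1 TPM, as bars grouped and coloured by role, with dashed lines at 2-fold and a dotted line at the median of all genes (-0.20). BST2, IFI27 and IFI6 lie above the upper dashed line and USP18 lies just below the lower one.

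BST2, which encodes tetherin, a membrane protein that holds budding virus particles on the cell surface, had the largest change of the 34. It was listed at 1.94 TPM in the control and 9.72 TPM in the GDF1 library, a log2 change of 1.87. Its level lay above 18.6% of the 14929 expressed genes in the control library and above 57.6% of them in the GDF1 library. BST2 (chromosome 19 of GRCh37, 17513748 to 17516439, minus strand) shared no exon bases with another gene above 1 TPM and none of its 100-base windows with another transcript. Its change was 1.93 with the GC trend removed and 2.08 with rescaled TPM.

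The IFI genes fell apart into expressed and unlisted ones. IFI27, a small mitochondrial protein gene that is among the most inducible by type I interferon, was listed at 1.17 and 4.51 TPM, a log2 change of 1.35. IFI6, a small membrane protein gene that limits flavivirus replication, was listed at 52.5 and 116.6 TPM (1.14), the largest gain in TPM among the 4 genes past 2-fold. AL445490.2 contained 14.3% of the 100-base windows of IFI6. IFI35 was listed at 79.5 and 104.1 TPM (0.38). IFI44 and IFI44L, neighbours on chromosome 1 of GRCh37 (79115481 to 79129763 and 79085587 to 79111830), stood at 0.0001 TPM in both libraries. IFI27 and IFI6 stayed over 2-fold higher under each of the 4 other ways of computing the change.

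ISG15 and its protease differed in direction. ISG15 was listed at 204.7 TPM in the control and 271.8 TPM in the GDF1 library, a log2 change of 0.41. USP18, which removes ISG15 from proteins and also dampens signalling at IFNAR2, was listed at 6.26 and 2.46 TPM (-1.07). USP18 was the single interferon gene over 2-fold lower, and it was within 2-fold after rescaling (-0.90) and after removal of the GC trend (-0.73). It shared 3.1% of its 100-base windows with another annotated locus.

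The IFITM genes, neighbours on chromosome 11 of GRCh37 between 303655 and 329475, encode membrane proteins that block virus fusion. IFITM1 was listed at 6.98 and 11.1 TPM (0.60) and IFITM3, given above, changed by 0.54. IFITM2 was listed at 14.2 and 11.0 TPM (-0.35). IFITM1 and IFITM3 were thus higher in PLC-8024-GDF1 and IFITM2 lower, all within 2-fold. Of the 100-base windows of IFITM1, 34.0% occurred in a transcript of another gene, against 2.1% for IFITM2 and 6.2% for IFITM3. For IFITM1, 31.1% were shared with 1 annotated locus, and whether the authors' annotation held that locus is not known. Reads could be shared where it did. AC136475.2, on the other strand, covers 10.6% of the exon bases of IFITM1, and with its TPM added the change of IFITM1 was 0.50. Added up, the 3 IFITM genes were listed at 1150 and 1669 TPM (0.54).

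Of the genes of the double-stranded RNA response, 3 of the 4 above 1 TPM were lower and 0 passed 2-fold. Among all 14929 genes that reached 1 TPM, 9443 were lower. OAS1, which makes the oligoadenylates that activate RNase L, was listed at 57.7 and 32.9 TPM (-0.79). OAS3 of the same family was listed at 6.08 and 4.09 TPM (-0.47). OAS2 (0.41 and 0.34 TPM) and OASL (0.51 and 0.41 TPM) were under 1 TPM in both libraries. The expressed OAS genes were therefore lower in PLC-8024-GDF1, also with rescaled TPM (-0.56 and -0.28) and with the GC trend removed (-0.40 and -0.30). EIF2AK2, the kinase PKR that halts translation on double-stranded RNA, was listed at 2.91 and 2.35 TPM (-0.22), and its change turned to 0.20 with the GC trend removed. ADAR, which edits adenosines in double-stranded RNA, had almost the same value in both libraries, 27.1 and 27.2 TPM, and changed by 0.23 with rescaled TPM and 0.20 with the GC trend removed.

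The IFIT and MX genes, widely used as reporters of type I interferon responses, were at the bottom of the range. IFIT5, which binds viral RNA ends, was listed at 1.70 and 1.61 TPM (-0.05). Its relatives IFIT1 (0.49 and 0.56 TPM), IFIT2 (0.12 and 0.25 TPM) and IFIT3 (0.34 and 0.34 TPM) stayed under 1 TPM. These 4 genes lie together on chromosome 10 of GRCh37, from 91043451 to 91181362. MX1 had 0.15 and 0.28 TPM and MX2 had 0.035 and 0.26 TPM. Neither of these antiviral GTPase genes reached 1 TPM, and no fold is given for them. The remaining genes under 1 TPM were PARP9, TRIM22 (0.025 and 0.0001 TPM) and XAF1, which was at 0.0001 TPM in both libraries. PRAL, which holds 73.5% of the 100-base windows of XAF1, was listed at 0.0001 and 0.035 TPM.

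The other antiviral effectors varied in direction. ISG20, a nuclease that degrades viral RNA, was listed at 72.3 and 42.5 TPM (-0.75). SP100, a protein of nuclear bodies that restrict viral DNA, was listed at 3.76 and 6.82 TPM (0.72). PARP14, an ADP-ribosyltransferase, was listed at 0.77 and 2.03 TPM (0.77), while PARP9, on the same chromosome, stayed under 1 TPM. TRIM21, a cytosolic antibody receptor, was listed at 8.58 and 7.77 TPM (-0.13). SP100 and PARP14 were within 2-fold here and over 2-fold higher with the GC trend removed (1.09 and 1.14).

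**Figure D3:**
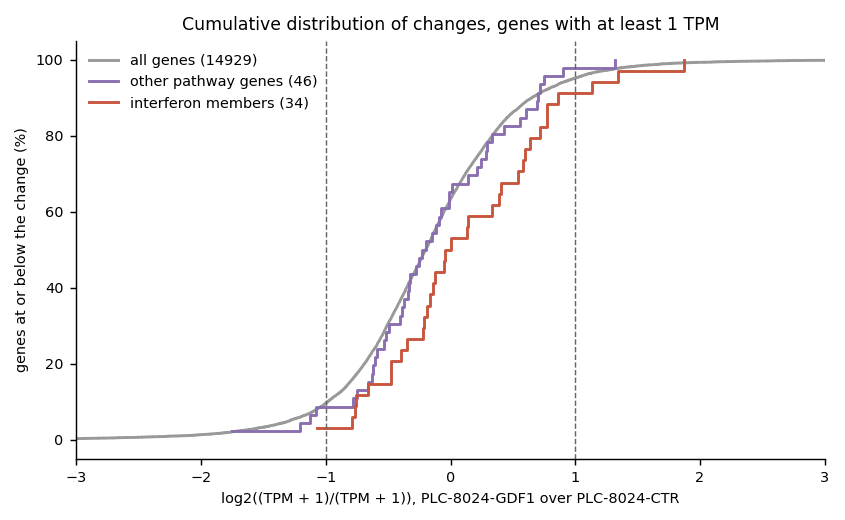
Cumulative share of genes (y axis, %) at or below each log2 change from the control to the GDF1 library (x axis), for the 34 interferon genes, the 46 other pathway genes and all 14929 genes with at least 1 TPM, with dashed lines at 2-fold. The curve of the other pathway genes lies close to that of all genes, and the curve of the interferon genes lies to the right of both over most of its length.

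The wider pathway was examined with 98 further symbols, 96 of which had a row in the tables and 46 of which reached 1 TPM. Of these 46, 1 was over 2-fold higher and 4 were over 2-fold lower, against the 4.82% and 9.61% of all genes given above, and the median log2 change was -0.22. LGALS3BP, a secreted glycoprotein gene, was the one over 2-fold higher, at 147.7 and 369.1 TPM (1.32). TBK1, the kinase that phosphorylates IRF3, was listed at 7.41 and 2.85 TPM (-1.13). PNPT1, a mitochondrial RNA exonuclease gene, was listed at 10.7 and 4.10 TPM (-1.20), and LAP3, an aminopeptidase gene, at 35.5 and 16.3 TPM (-1.08). TRIM34 was listed at 2.37 and 0.0001 TPM, while the read-through gene TRIM6-TRIM34 was listed at 0.0001 and 0.98 TPM, so reads could be placed on either. With rescaled TPM, TBK1 (-0.95) and LAP3 (-0.85) were within 2-fold and PNPT1 (-1.01) was not. With the GC trend removed, TBK1 (-0.69), LAP3 (-0.87) and PNPT1 (-0.79) were each within 2-fold. LGALS3BP and TRIM34 stayed past 2-fold both ways.

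With the pseudocount of 1, genes that induce or limit interferon signalling stayed within 2-fold, apart from TBK1. TBK1 was within 2-fold after rescaling or removal of the GC trend. IKBKE, the kinase related to TBK1, was listed at 13.6 and 21.1 TPM (0.60). TMEM173, which encodes the DNA-sensing adaptor STING, was listed at 1.76 and 1.08 TPM (-0.41), and the DNA sensor gene MB21D1 was under 1 TPM in both libraries. Of the 6 inhibitors listed, 5 had at least 1 TPM and changed by -0.52 (SOCS3) to 0.56 (SOCS1), 2 of them upwards. SOCS1 was listed at 0.42 and 1.09 TPM, and its TPM ratio without a pseudocount, 2.61, was past 2-fold. Among the 55 other stimulated genes, 32 had at least 1 TPM, and RSAD2 (0.12 and 0.0001 TPM), CXCL10 and CXCL11 (0.0001 TPM in both) did not.

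GC content moved with the changes. When all genes with a GC value and at least 1 TPM were divided by GC content into 5 bins of 2928 genes, the median log2 change was -0.45 in the bin of lowest GC and 0.11 in that of highest GC. The 5 interferon genes of the lowest bin (IFNGR1, EIF2AK2, OAS1, DDX58 and IFIT5) were all lower in PLC-8024-GDF1, with a median of -0.66. In the highest bin, 4 of 5 interferon genes were higher (IRF3, IFITM3, IRF7 and ISG15, not TYK2), with a median of 0.54. In bin 4, the bin below it, 6 of 8 were higher with a median of 0.59, and the median over all genes was -0.09. How many of all genes were higher or lower by any size was not counted by bin. BST2 (57.3% GC) and IFI6 (56.4% GC) lay in bin 4, IFI27 (50.4% GC) in bin 3 and USP18 (43.1% GC) in bin 2. With the trend removed, BST2 changed by 1.93, IFI6 by 1.21 and IFI27 by 1.54, and 23 of the 34 interferon genes were higher, against 49.4% of all genes. The part of GC content in the direction of the other genes was not tested.

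**Figure D4:**
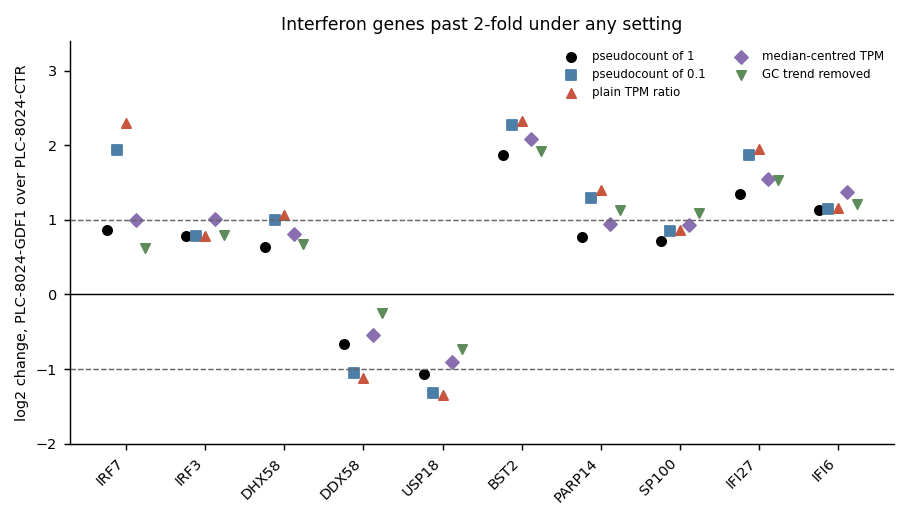
Log2 change from the control to the GDF1 library (y axis) for the 10 interferon genes that passed 2-fold (dashed lines) under any of 5 ways of computing it, 1 symbol per way. BST2, IFI27 and IFI6 lie above 1 in all 5, and the other 7 cross the line.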

How the data were processed

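Poly-A RNA of the control line (PLC-8024-CTR) and of the GDF1 line (PLC-8024-GDF1) was sequenced, with 1 library per condition. The value columns are headed as mean TPM, although 1 library is labelled for each. Per the labels and methods, the authors filtered the reads with Trimmomatic 0.36, aligned them to hg19 with HISAT2 2.1.0 and deposited TPM values per gene from StringTie 1.3.3b, in which 0.0001 stands in place of 0. The methods name a RefSeq annotation, while the tables list Ensembl identifiers. Whether counting used strand was not given in the sources used here. TPM sum to 999990 and 999995, so depth is unknown and no counting interval is given.

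Tables were joined on gene identifier. Log2 changes used a pseudocount of 1 and genes that reached 1 TPM in at least 1 library. With 1 library per group no test was made. All interferon genes that reached 1 TPM were named with both values, as were other pathway genes past 2-fold. Further pathway genes, overlapping genes and genes under 1 TPM were named after their values were seen. The interferon genes, pathway list, markers and motifs were chosen with earlier results of these data known, and nothing is supported by that choice.

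Positions, exon overlaps and GC content of the longest transcript came from GENCODE v44 on GRCh37. Shared windows were exact 100-base matches on either strand between the longest transcript of a gene and all transcripts of other genes. The GC trend was a lowess fit with a span of 0.3 over 14640 genes. Promoter sequences came from RefSeq on GRCh38.p14. DDX58 was matched through its synonym. The code, in Python 3.11.15 with numpy 2.4.6, pandas 2.3.3, statsmodels 0.14.6 and matplotlib 3.10.9, was tested on simulated data. The alternatives tried were a pseudocount of 0.1 or none, other TPM minimums, scalings and folds, the GC trend removed and the IFITM genes added up.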

Additional observations from a re-analysis of the deposited data

How the results depend on the processing

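No paired analysis was possible because the conditions are represented by 1 library each. BST2, IFI27 and IFI6 were over 2-fold higher under each of the 4 alternatives computed for single genes. The share of all genes over 2-fold higher and lower moved with the setting too, to 7.82% and 15.5% at pseudocount 0.1, 7.88% and 16.1% for TPM ratios without one (the plain ratio), 7.38% and 6.52% with median-centred TPM, 6.29% and 6.05% with the GC trend removed, and 11.5% and 25.3% at 1.5-fold. Beside these shares, the 3 interferon genes over 2-fold higher became 5 with a pseudocount of 0.1, 6 with the plain ratio, 5 with the GC trend removed and 9 at 1.5-fold. The 1 gene over 2-fold lower became 2, 2, 0 and 5 in the same order, and 0 with median-centred TPM. The plain ratio added IRF7 (2.30), PARP14 (1.39), DHX58 and DDX58, genes whose lower value was near or under 1 TPM. The median log2 change of the interferon genes, -0.02 with the pseudocount of 1, was 0.21 with median-centred TPM, 0.29 with the GC trend removed, 0.0018 with at least 5 TPM and 0.0 with no filter on low values. Small changes within 2-fold turned their sign for 7 genes with median-centred TPM and for 6 with the GC trend removed. Of the other pathway genes, beside the same shares of all genes, those over 2-fold higher numbered 3 with a pseudocount of 0.1, 3 with the plain ratio, 2 with median-centred TPM and 7 at 1.5-fold, instead of 1, and those over 2-fold lower numbered 2 with median-centred TPM, 1 with the GC trend removed and 11 at 1.5-fold, instead of 4. Counts with at least 5 TPM, no filter or the IFITM genes added up stayed within 1.5 times. With at least 5 TPM, 2 interferon genes were over 2-fold higher, against 4.89% of all genes, because IFI27 did not reach that minimum. Adding the TPM of overlapping genes was chosen after the data were seen. TPM carry no depth, which limits the genes near 1 TPM most.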
